A study of Mus musculus with 16 samples.

Results

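The 7 genes described here encode RNA-binding proteins that shorten the life of cytokine mRNAs. They were chosen by name, with earlier results of these data known, and were found by matching Entrez gene numbers to mouse symbols. They fall into 3 families: the ZFP36 zinc-finger proteins (Zfp36, Zfp36l1 and Zfp36l2), the regnase nucleases (Zc3h12a and Zc3h12c) and the roquins (Rc3h1 and Rc3h2). All 7 were among the 27179 genes counted, and all 7 were among the 12589 genes with enough reads to be tested.

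RNA was sequenced from iBMDM MyD88-AGF cells, immortalised macrophages grown from mouse bone marrow, and the genotype MyD88-AGF WT is common to all groups. Treated cells had 6 h of lipopolysaccharide (LPS, the bacterial glycolipid that TLR4 senses) at 10 ng/mL, and untreated cells had none. LPS-treated cells were sorted by side scatter, a measure of internal granularity: those with high scatter are called responders and those with low scatter bystanders. The LPS pool (LPS-treated) and the untreated cells crossed the sorter ungated, after the gated cells had been collected. Each of these 4 groups has 4 libraries, and the series' title concerns the assembly of the myddosome, a MyD88 signalling complex below TLR4. The labels do not say whether the line is 1 clone or whether replicates were separate cultures, and the tests therefore reflect sample-to-sample spread alone, possibly technical.

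Inflammatory mRNAs are short-lived because their 3′ untranslated regions (UTRs) carry binding sites for such proteins. The ZFP36 proteins bind AU-rich elements and recruit the CCR4-NOT complex, which removes the poly(A) tail. Regnase-1, the product of Zc3h12a, is an endonuclease that cuts stem-loops in translated mRNAs, and the roquins bind similar stem-loops and recruit the same deadenylase. In macrophages Zfp36 and Zc3h12a are themselves induced by Toll-like receptor signals, and tristetraprolin, the Zfp36 protein, also acts on its own mRNA.

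Libraries held 15287344 to 25193162 counts. All 8 macrophage markers reached 1 CPM on average (CPM: read counts relative to the scaled library total) and summed to 3278 to 4581 CPM, while Cd3e, Cd3g, Nkg7, Ly6g and S100a9, markers of lymphocytes and neutrophils, had no read in any library. Of 16 neural markers, the 12 that were near 0 in at least 1 library summed to 17.8 to 29.3 CPM in 6 libraries (untreated 1, bystander 3 and 4, LPS pool 3 and 4, responder 1) and to 0.327 to 1.24 CPM in the other 10. Fibroblast markers, led by Col1a1, summed to 7.02 to 30.8 CPM in untreated libraries and 1.94 to 76.9 CPM in bystanders. Their sums were 3.18 to 106 CPM in the LPS pool and 8.69 to 30.3 CPM in responders. Dendritic cell markers, mostly Xcr1, summed to 0.498 to 0.874 CPM in untreated cells and 6.99 to 8.28 CPM in bystanders. Because of the neural transcripts, each member was also tested in the 10 libraries without them, and changes in a call are given beside the result. No library was left out for its fibroblast sum, and the part of the fibroblast transcripts was not tested.

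The mRNAs of 5 members carry a 9-base AU-rich element of the kind that ZFP36 proteins bind. The sites below are shown because they mark which of these genes hold that element. Each is read from the coding strand of the GENCODE M21 transcript on GRCm38, 5′ to 3′, and the capitals mark the 9-base element TTATTTATT, with Tnf, the classical tristetraprolin target, for comparison.
Zfp36 (chr7:28376952-28376978, minus strand): atgacgactTTATTTATTgtattaaga
Zfp36l1 (chr12:80108168-80108194, minus strand): actgttggaTTATTTATTttagaaatt
Zfp36l2 (chr17:84184915-84184941, minus strand): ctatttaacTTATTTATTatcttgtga
Rc3h1 (chr1:160970044-160970070, plus strand): ctttactcaTTATTTATTgagatgagg
Rc3h2 (chr2:37373288-37373314, minus strand): aaagacattTTATTTATTttactctgt
Tnf (chr17:35199672-35199698, minus strand): atttatttaTTATTTATTtatttgctt

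All 3 ZFP36 family mRNAs held 1 such element, in 3′ UTRs of 774, 1835 and 1822 bases for Zfp36, Zfp36l1 and Zfp36l2. Among UTRs within 20% of their length the shares with the element were 4.7%, 8.9% and 8.9%, and over the 11302 tested genes with an annotated 3′ UTR the share was 7.5%. Each also held 3 copies of the 7-base core TATTTAT, which lies inside the 9-base element. The Tnf UTR, at 764 bases, held 5 overlapping 9-base elements. The regnase mRNAs held none: Zc3h12a had no core in 856 bases, and Zc3h12c had 2 cores in 4062 bases. The roquin UTRs are long, 7181 bases for Rc3h1 and 5160 for Rc3h2, and 27.3% and 21.0% of UTRs of such lengths held the 9-base element.

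Roquins and regnase-1 are known to act on stem-loops with a loop of pyrimidine, purine and pyrimidine. The search used TTCNNNGAA with such a loop in place of the N bases, on the coding strand only. Neither regnase mRNA and none of the 3 ZFP36 mRNAs held a match, while Rc3h1 held 2 and Rc3h2 held 1. They are shown beside the match of Tnf and 1 of the 2 matches of Nfkbid, both known targets. The 9 matched bases are in capitals.
Rc3h1 first (chr1:160968033-160968059, plus strand): ttgtttttgTTCTGTGAAtgaacttta
Rc3h1 second (chr1:160971654-160971680, plus strand): gccaataacTTCTGTGAAgttgccttt
Rc3h2 (chr2:37373803-37373829, minus strand): ttaattaacTTCTGTGAAgttgtttac
Tnf (chr17:35199579-35199605, minus strand): agacatgttTTCTGTGAAaacggagct
Nfkbid (chr7:30428396-30428422, plus strand): ctaggtgatTTCTGTGAAatcgagccc

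Around the loop, 6 base pairs could form in the second Rc3h1 site and in the printed Rc3h2, Tnf and Nfkbid sites. In the first Rc3h1 site 3 could form. The share of UTRs of similar length with a match was 24.7% for Rc3h1, 18.5% for Rc3h2, 3.3% for Tnf and 2.1% for Nfkbid. Among other reported regnase and roquin targets searched, Nfkbiz and Ier3 held 1 match each, while Il6, Il1b, Cxcl1, Cxcl2 and Ptgs2 held 0. A match describes the letters only and is not evidence of binding, and a missing match is not evidence that an mRNA is no target.

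Between the gates all 7 members passed the test (edgeR's quasi-likelihood test, adjusted p under 0.05, which counts as a change here), beside 70% of all tested genes, so the count itself says little about them. Their directions and sizes differed: 4 were higher in responders and 3 lower, beside 34.7% and 35.3% of genes, and only Zc3h12a and Zc3h12c differed at least 2-fold, a size that 11.2% of all tested genes reached. In the LPS pool against untreated cells 6 members passed, 5 higher and 1 lower, beside 71.9% of genes (34.1% higher, 37.8% lower), and Zfp36, Zc3h12a and Zc3h12c rose at least 2-fold, as 9.72% of genes did. In bystanders against untreated cells 5 passed, 4 higher and 1 lower, beside 67.1% of genes (34.1% higher, 32.9% lower). In responders against untreated cells all 7 passed, 6 higher and 1 lower, beside 75% of genes (36.5% higher, 38.5% lower), although the call of Rc3h2 there was lost under several alternatives. These comparisons share their untreated libraries. For both gated groups they also join LPS with gating and with collection order, which cannot be told apart there. In bystanders against the LPS pool all 7 passed, 3 higher and 4 lower, beside 67% of genes (34.1% higher, 32.9% lower).

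**Figure D1:**
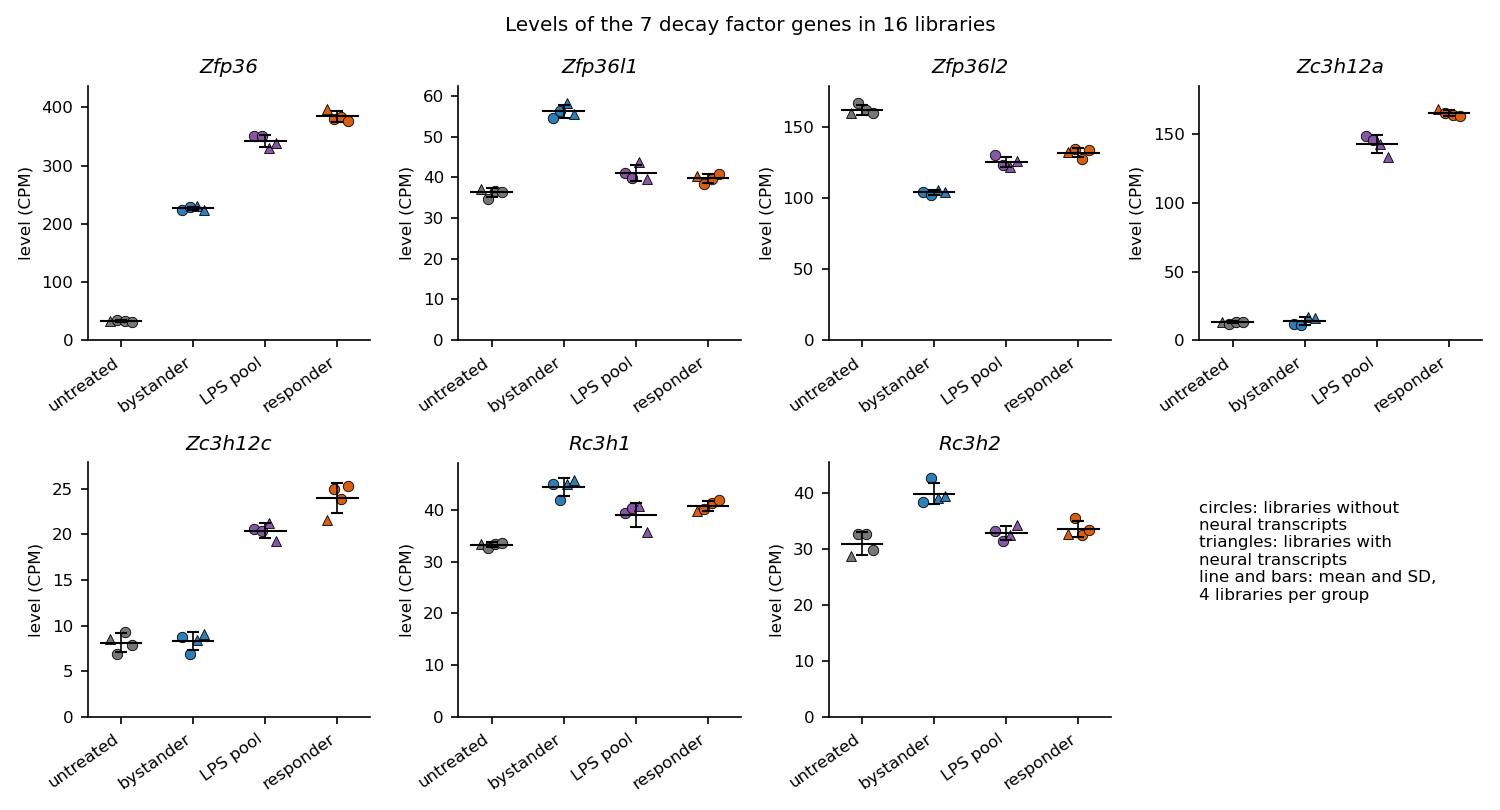
Level of each gene in CPM (vertical axis from 0) in the 16 libraries by group. Points are libraries, triangles those with neural transcripts, and the line and bars are the mean and SD of 4 libraries; Zfp36 stands at 226 CPM in bystanders, between untreated and responder cells, while Zc3h12a stays at 14.04 CPM there.

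Zfp36 (chromosome 7, 28376784 to 28379228) encodes tristetraprolin, and it rose in every LPS-treated group. Its level was 32.2, 34.3, 33.5 and 31.9 CPM in untreated replicates 1 to 4. Bystanders had 224, 228, 230 and 224 CPM. The LPS pool had 352, 351, 330 and 339 CPM, and responders had 398, 380, 384 and 377 CPM. No library of one group reached the range of another, and the order untreated, bystander, LPS pool, responder held at each step.

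Against untreated cells the rise of Zfp36 was 6.87-fold in bystanders (log2 difference 2.78, SE 0.0302, adjusted p = 1.07e-62), 10.4-fold in the LPS pool (3.38, SE 0.0296, adjusted p = 7.01e-68) and 11.7-fold in responders. Responders exceeded bystanders 1.70-fold (0.76, SE 0.0227, adjusted p = 2.54e-38) and the LPS pool 1.12-fold (adjusted p = 2.38e-08). In these bulk samples fewer cells with the mRNA and less of it per cell cannot be told apart.

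Zfp36l1 (chromosome 12, 80107760 to 80113013), a relative known for roles in lymphocyte and blood vessel development, was highest in bystanders. Untreated libraries had 37.2, 34.7, 36.8 and 36.5 CPM and bystanders 54.7, 56.3, 58.3 and 55.6 CPM. In the LPS pool it was at 41.2, 39.8, 43.9 and 39.7 CPM and in responders at 40.4, 38.3, 39.5 and 40.8 CPM. The bystander libraries stood above all others, and the pool and responder libraries overlapped.

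Responders held 1.42-fold less Zfp36l1 than bystanders (log2 difference -0.50, SE 0.0411, adjusted p = 6.24e-17). Bystanders were 1.55-fold above untreated cells (0.63, SE 0.0413, adjusted p = 3.35e-21). The smaller differences of the pool and of responders from untreated cells, 0.18 (adjusted p = 0.000287) and 0.13 (adjusted p = 0.00528), turned to -0.15 and -0.25 when libraries were scaled by their totals alone, so their direction depends on the scaling. A pseudogene, Zfp36l1-ps, is not in the table, and reads shared with it would be uncertain.

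Zfp36l2 (chromosome 17, 84183924 to 84187947), the third family member, went the other way after LPS. Untreated libraries had 160, 167, 162 and 160 CPM, and bystanders 104, 102, 106 and 104 CPM. Values in the LPS pool were 130, 123, 122 and 127 CPM and in responders 132, 135, 128 and 134 CPM. Untreated libraries were above all LPS-treated ones and bystanders below all others.

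Zfp36l2 fell 1.56-fold in bystanders (log2 difference -0.64, SE 0.0269, adjusted p = 1.67e-30), 1.29-fold in the LPS pool (-0.37, SE 0.0269, adjusted p = 3.23e-19) and 1.23-fold in responders (-0.30, SE 0.0261, adjusted p = 8.36e-16). Responders were 1.27-fold above bystanders (0.34, SE 0.0276, adjusted p = 2.71e-17). Their difference from the pool, 0.07 (adjusted p = 0.0380), was lost under 11 of 23 alternatives, among them the libraries without neural transcripts (0.06, adjusted p = 0.205), and the libraries overlapped.

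Set against exon length, the makeup of the ZFP36 family changed from Zfp36l2 to Zfp36. In untreated cells Zfp36l2 made up 68.0% ± 0.577 of the family's summed level in CPM per kilobase of exon, Zfp36l1 18.0% ± 0.767 and Zfp36 14.1% ± 0.281 (SD, n = 4). In bystanders Zfp36 held 57.5% ± 0.338, in the LPS pool 66.7% ± 0.768 and in responders 68.6% ± 0.678. The share of Zfp36l1 was 16.6% ± 0.256 in bystanders and 8.23% ± 0.232 in responders. These shares use ratios within a library, so its scaling does not enter them, and with the length of the single principal transcript Zfp36 held 16.9%, 62.7%, 71.3% and 73.1% in untreated, bystander, pool and responder cells. The summed family level was 67.7 ± 0.944, 114 ± 1.44, 148 ± 3.29 and 162 ± 2.68 CPM per kilobase in the same order.

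**Figure D2:**
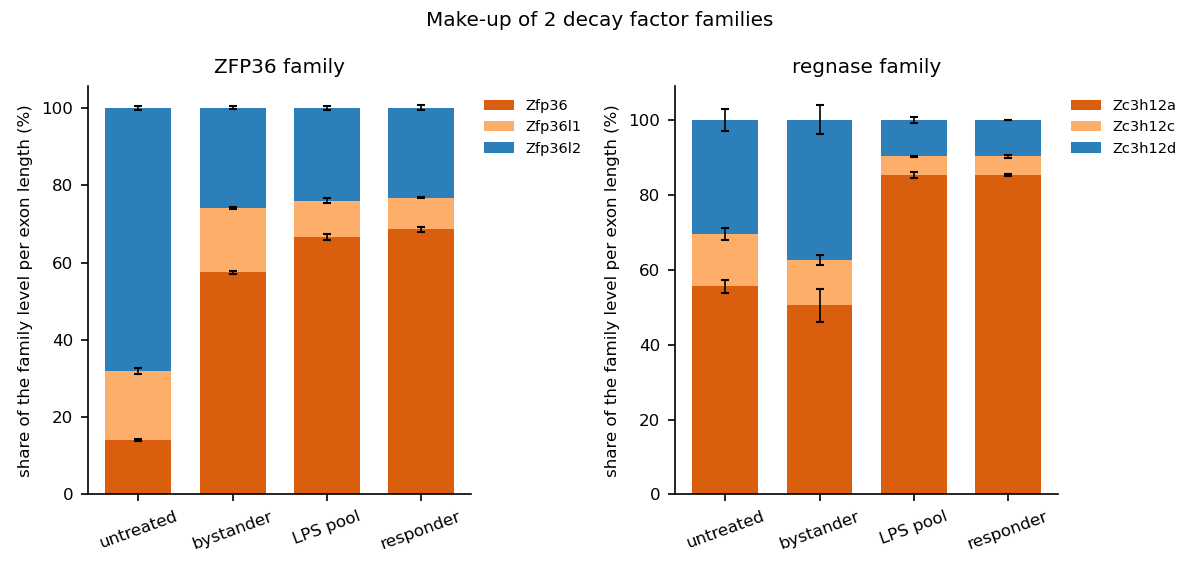
Stacked bars give each gene's mean share (vertical axis, percent from 0 to 100) of its family's summed level per kilobase of exon in each group, with bars of 1 SD over 4 libraries. Zfp36 goes from 14.1% of its family in untreated cells to 57.5% in bystanders and 68.6% in responders, and Zc3h12a from 55.5% and 50.5% to 85.3% of the regnases.

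The stretch of 120 bases before the Zfp36 start is printed because Zfp36 rose in every LPS-treated group. It comes from the RefSeq promoter table of GRCm38.p6 (chr7:28379229-28379348, minus strand, 5′ to 3′). Capitals mark an EGR motif (GCGNGGGCG) 105 bases and a CArG box, the motif of serum response factor, 58 bases before the start.
Zfp36 promoter: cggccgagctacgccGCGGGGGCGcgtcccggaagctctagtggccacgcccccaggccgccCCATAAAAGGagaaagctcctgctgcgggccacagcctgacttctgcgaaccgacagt

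Both strands of windows of 300 bases were searched for 6 motifs, and 6 of the 7 members had such a window. The EGR motif occurred in 5.6% and the CArG box in 1.6% of 32851 windows. The Zc3h12c window at 52168357 to 52168656 held a match to the kappaB motif, which 8.5% of windows had. Another window of that gene, at 52149314 to 52149613, held none of the 6 motifs. The Zfp36l1 window held TATAAA, found in 13.6%, and an AP-1 motif (TGANTCA), found in 7.8%. The Rc3h1 window held an AP-1 motif, the Zc3h12a and Rc3h2 windows held no match, and the cyclic AMP response motif TGACGTCA was in no member's window. No match says only that these letters are absent from the window.

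Zc3h12a (chromosome 4, 125118414 to 125127881), the regnase-1 gene, separated the gates more than any other member. Untreated libraries had 13.4, 12.0, 13.2 and 13.3 CPM and bystanders 11.7, 11.4, 16.7 and 16.3 CPM. The LPS pool had 149, 146, 143 and 134 CPM, and responders 169, 166, 164 and 164 CPM. Bystanders overlapped with untreated cells, and every pool and responder library stood far above both.

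Responders held 11.4-fold more Zc3h12a than bystanders (log2 difference 3.52, SE 0.0724, adjusted p = 1.56e-16), and the LPS pool 11.03-fold more than untreated cells (3.46, SE 0.0753, adjusted p = 2.76e-16). Bystanders against untreated cells gave 0.16 (95% interval -0.06 to 0.37, adjusted p = 0.227). Bystander replicates 3 and 4, with the higher values, are among the libraries with neural transcripts. Without such libraries the difference was -0.15 (adjusted p = 0.129) and the one between the gates 3.83, and leaving out bystander replicate 1 or 2 gave 0.23 either way (adjusted p = 0.0315 and 0.0201). The part of the neural transcripts in this was not tested.

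Zc3h12c (chromosome 9, 52109569 to 52168730), which encodes regnase-3, a relative found in macrophages, had the same order at lower levels. Untreated libraries had 8.52, 6.88, 9.26 and 7.85 CPM and bystanders 8.76, 6.85, 8.42 and 9.10 CPM. Libraries of the LPS pool had 20.6, 20.4, 21.3 and 19.3 CPM and responders 21.6, 25.04, 23.9 and 25.3 CPM. Untreated cells and bystanders overlapped over their whole range.

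Responders exceeded bystanders 2.87-fold in Zc3h12c (log2 difference 1.52, SE 0.0776, adjusted p = 3.20e-26), and the LPS pool exceeded untreated cells 2.52-fold (1.33, SE 0.0809, adjusted p = 9.17e-23). Bystanders against untreated cells gave 0.05 (95% interval -0.13 to 0.22, adjusted p = 0.674). The gene Mir6244 lies within Zc3h12c and is not in the table. Responders were above the LPS pool for both regnases, 1.16-fold for Zc3h12a (adjusted p = 0.00765) and 1.17-fold for Zc3h12c (adjusted p = 0.00952). DESeq2 did not call the first (adjusted p = 0.0619), and library totals alone did not call the second (adjusted p = 0.0533). In that comparison 4 members passed, all higher, beside 25.5% of genes (16% higher, 9.49% lower), and 2 passed with DESeq2 or with library totals alone.

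Of the paralogues that are not among the 7, Zc3h12d, the regnase-4 gene, was tested and rose in steps. It stood at 10.6 ± 0.880 CPM in untreated cells, 15.2 ± 0.380 in bystanders, 24.1 ± 0.962 in the pool and 27.97 ± 0.376 in responders (SD, n = 4). It was 1.84-fold higher in responders than bystanders (adjusted p = 1.91e-20) and 1.44-fold higher in bystanders than in untreated cells (adjusted p = 9.88e-10). Zc3h12b had 46 reads over all 16 libraries and Zfp36l3 had 0, and neither was tested. Mex3c, the gene of an RNA-binding ubiquitin ligase, was 35.1 ± 2.98 CPM in responders and 31.4 ± 0.854 in bystanders (log2 difference 0.16, adjusted p = 0.00393), which was -0.03 with library totals alone. Unk, another zinc-finger gene, rose 1.32-fold in the pool and gave 0.08 between the gates (adjusted p = 0.115). Per kilobase of exon, Zc3h12a made up 55.5% ± 1.74 of the 3 regnases in untreated cells, 50.5% ± 4.37 in bystanders, 85.4% ± 0.777 in the pool and 85.3% ± 0.381 in responders. Their summed level was 8.48 ± 0.238, 10.01 ± 1.198, 60.8 ± 2.33 and 70.4 ± 0.681 CPM per kilobase.

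**Figure D3:**
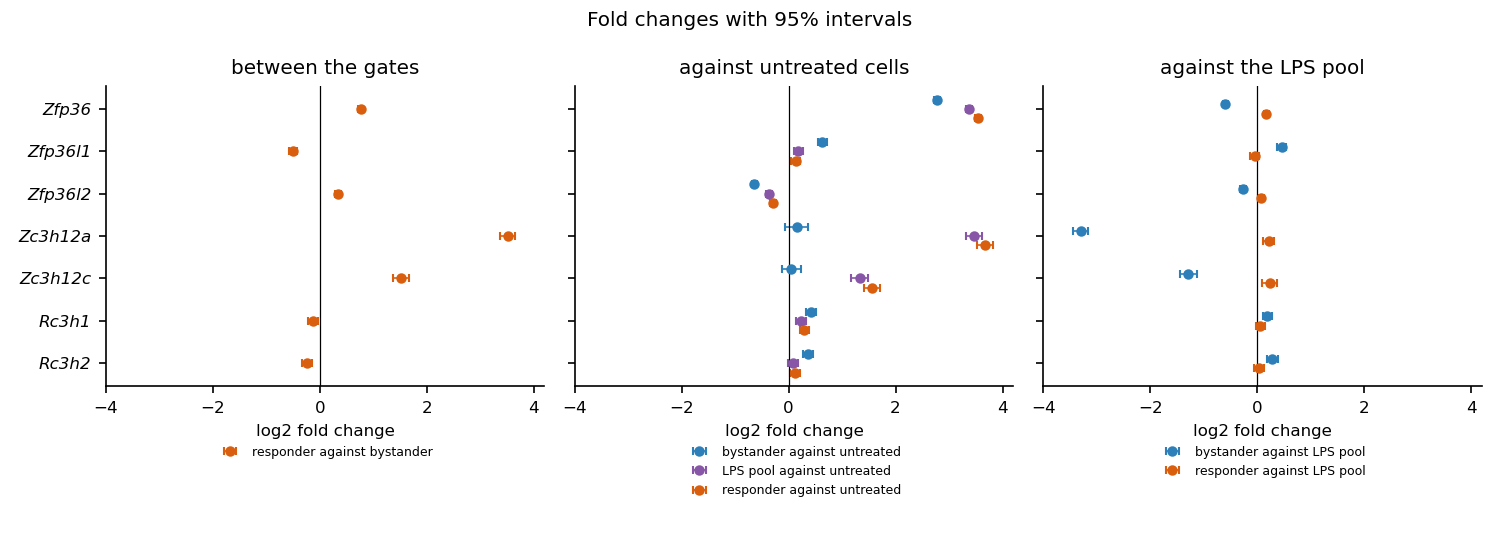
Log2 fold changes (horizontal axis) of the 7 genes from 1 fit, for the gates, against untreated cells and against the LPS pool, with 95% intervals as bars. Zc3h12a lies at 3.52 between the gates and at 0.16 for bystanders against untreated cells, where Zfp36 lies at 2.78; the small positive values of Zfp36l1, Rc3h1 and Rc3h2 in the pool and in responders against untreated cells turn negative when libraries are scaled by their totals alone.

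Rc3h1 (chromosome 1, 160906411 to 160974976), the roquin-1 gene, was highest in bystanders by a small margin. Untreated libraries had 33.5, 32.7, 33.5 and 33.7 CPM and bystanders 45.1, 42.1, 45.0 and 45.9 CPM. The LPS pool had 39.4, 40.5, 40.8 and 35.8 CPM and responders 39.8, 40.2, 41.5 and 41.9 CPM. Untreated libraries were below all others, and no responder reached a bystander.

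Bystanders were 1.34-fold above untreated cells in Rc3h1 (log2 difference 0.42, SE 0.0442, adjusted p = 7.70e-13), and responders 1.09-fold below bystanders (-0.13, SE 0.0432, adjusted p = 0.00731). The difference between the gates no longer passed once libraries with neural transcripts were left out (-0.08, adjusted p = 0.232), and neither did that between bystanders and the LPS pool, which went from 0.19 (adjusted p = 0.000240) to 0.12 (adjusted p = 0.0914). The pool and responders were above untreated cells by 0.24 (adjusted p = 8.65e-06) and 0.29 (adjusted p = 3.63e-08), and both turned to -0.09 with library totals alone.

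Rc3h2 (chromosome 2, 37368861 to 37424370), the roquin-2 gene, had the same order. Untreated libraries had 28.7, 32.6, 32.6 and 29.8 CPM and bystanders 38.4, 42.6, 39.0 and 39.4 CPM. The LPS pool had 33.2, 31.4, 32.4 and 34.2 CPM and responders 32.6, 35.5, 32.5 and 33.4 CPM. The bystanders stood above every other library, and the other 3 groups overlapped.

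Bystanders were 1.29-fold above untreated cells in Rc3h2 (log2 difference 0.36, SE 0.0481, adjusted p = 1.06e-09), and responders 1.19-fold below bystanders (-0.25, SE 0.0479, adjusted p = 7.07e-06). The pool did not pass against untreated cells (0.08, 95% interval -0.02 to 0.18, adjusted p = 0.134), and the difference of responders from untreated cells, 0.12 (adjusted p = 0.0286), had overlapping libraries. That call was lost in the libraries free of neural transcripts (0.10, adjusted p = 0.101), with no filter on low counts (0.11, adjusted p = 0.0553) and without untreated replicate 1, untreated replicate 4 or responder replicate 2 (adjusted p = 0.134, 0.0830 and 0.113). With library totals alone the pool and responders gave -0.24 and -0.27. Snord90 lies within Rc3h2 and is counted as a gene of its own. Per kilobase of exon both roquins were close in level, with Rc3h1 at 46.8% ± 1.82 of their sum in untreated cells and 49.9% ± 1.30 in responders.

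The ungated LPS pool lay nearer to responders than to bystanders for every member. Its mean stood at 73.7% of the way from bystander to responder for Zfp36, 76.5% for Zfp36l2, 77.3% for Zc3h12c, 85.1% for Zc3h12a and 91.6% for Zfp36l1. For Rc3h1 and Rc3h2, whose gates differ little, it lay beyond the responder mean. Over 745 genes with at least 2-fold difference between the gates and a mean of at least 5 CPM, the median was 85.2%, with quartiles of 78.6% and 93.2%. The gated and ungated cells were collected at different times, and collection order cannot be told apart from gating in comparisons with the pool. In responders or bystanders against untreated cells, LPS, gating and collection order cannot be told apart.

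The deadenylation machinery that ZFP36 proteins and roquins recruit moved little and in both directions. Of 20 genes of CCR4-NOT and related deadenylases, 5 were higher and 9 lower in responders than bystanders, with a median log2 difference of -0.08 beside -0.01 over all tested genes. In the LPS pool against untreated cells 3 were higher and 13 lower (median -0.19, beside -0.03), and with library totals alone 2 and 15 and then 3 and 17. Btg1, which encodes an antiproliferative partner of the deadenylases, was 124 ± 3.82, 151 ± 6.52, 213 ± 11.3 and 246 ± 3.67 CPM in untreated, bystander, pool and responder cells and was 1.62-fold higher in responders than bystanders (adjusted p = 8.43e-24). Its relative Btg2 was 2.11-fold higher at 20.04 ± 0.339 against 9.33 ± 1.49 CPM (adjusted p = 1.98e-19). Pan2, a subunit gene of the other deadenylase complex, was 1.52-fold lower, at 16.7 ± 1.87 against 25.3 ± 1.15 CPM (adjusted p = 1.67e-12). Tob1, another partner, fell 1.97-fold in the pool from 27.7 ± 1.66 to 14.1 ± 0.748 CPM, and Cnot6l, a catalytic subunit gene, rose 1.48-fold from 34.2 ± 1.75 to 50.5 ± 1.85 CPM.

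Genes for decapping and 5′ to 3′ decay were higher in responders for 5 and lower for 7 of 15 (median -0.07), and in the pool higher for 6 and lower for 5 (median 0.04). With library totals alone the counts were 3 and 9 and then 2 and 11. Dcp2, the decapping enzyme gene, was highest in bystanders at 178 ± 4.64 CPM, against 61.5 ± 1.72 in untreated cells and 112 ± 2.53 in responders, 1.59-fold below bystanders (adjusted p = 4.74e-31). Xrn1, the 5′ to 3′ exonuclease gene, had the same order, at 9.90 ± 0.762, 37.9 ± 0.534 and 25.3 ± 0.853 CPM, and was lower in responders than bystanders (log2 difference -0.58, adjusted p = 7.79e-16). Lsm14b and Eif4e2, the gene of a cap-binding translation repressor, were higher in responders than bystanders, 1.47-fold and 1.25-fold. The rise of Eif4e2 in the pool, 0.31 on the log2 scale, was -0.02 with library totals alone.

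The 14 exosome and Ski complex genes, for 3′ to 5′ decay, were higher in responders for 6 and lower for 3 (median 0.04), and in the pool higher for 4 and lower for 10 (median -0.25), or 0 and 14 with library totals alone. Dis3, the catalytic subunit gene, fell 1.43-fold in the pool, from 62.3 ± 1.63 to 43.4 ± 2.30 CPM (adjusted p = 1.57e-17), and Exosc2 1.37-fold and Exosc8 1.22-fold. Exosc1, Exosc3 and Exosc4 were 1.22-fold to 1.27-fold higher in responders than bystanders. In the pool Exosc3 and Exosc4 gave 0.23 and 0.13, which turned to -0.09 and -0.20 with library totals alone.

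Other binders of AU-rich or cytokine mRNAs, some of which stabilise them, were higher in responders for 9 and lower for 7 of 18 (median 0.06), and in the pool higher for 5 and lower for 8 (median -0.12). With library totals alone the counts were 3 and 9 and then 2 and 16. Arid5a, known to stabilise Il6 mRNA and to oppose regnase-1, was the most different: it stood at 3.22 ± 0.399 CPM in untreated cells, 86.6 ± 0.981 in bystanders, 21.9 ± 0.848 in the pool and 21.98 ± 1.27 in responders. Responders held 3.94-fold less than bystanders (adjusted p = 2.83e-44), and no library of either gate reached the other. Bystanders held 26.99-fold more than untreated cells (adjusted p = 1.68e-57), beside the 0.16 on the log2 scale of Zc3h12a in the same comparison. Hnrnpd, the AUF1 gene, was 1.56-fold higher in responders than bystanders, at 322 ± 16.4 against 206 ± 4.04 CPM. Igf2bp2 rose 3.27-fold in the pool and Khsrp, the KSRP decay factor gene, fell 1.42-fold.

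Of 22 genes for kinases and partners that act on the decay factors, 15 were higher and 4 lower in responders (median 0.14), and 13 higher and 6 lower in the pool (median 0.17). With library totals alone these were 8 and 10 (median -0.05) and 7 and 13 (median -0.16). Mapkapk2, whose kinase MK2 phosphorylates tristetraprolin and holds it inactive, stood at 275 ± 5.93, 384 ± 10.3, 1132 ± 7.86 and 1313 ± 13.5 CPM in untreated, bystander, pool and responder cells, 3.42-fold higher in responders than bystanders (adjusted p = 6.90e-61). Dusp1, which encodes a phosphatase that switches off the p38 kinase above MK2, was 1.61-fold higher, at 95.8 ± 5.48 against 59.2 ± 2.02 CPM. Malt1, whose protease cuts regnase-1 and the roquins, was 4.04-fold higher, at 191 ± 5.10 against 47.1 ± 3.597 CPM, and was chosen after its values were seen. N4bp1, a gene of the same nuclease fold as the regnases, went the other way at 132 ± 3.59 against 180 ± 3.92 CPM. Tank, whose product works with regnase-1, rose 2.02-fold in the pool.

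Most reported target mRNAs of the factors were higher in responders than bystanders. Of 20 reported ZFP36 targets 19 were tested. All 19 were higher in responders than bystanders, 16 of them at least 2-fold (median log2 difference 2.61), and all 19 in the pool (median 3.799). Over all 12589 tested genes, 34.7% were higher between the gates, 733 genes at least 2-fold, and 34.1% were higher in the pool. In bystanders against untreated cells 16 were higher and 3 did not pass (median 1.44). The spread among bystander libraries differed between targets. Il1b ran from 7.79 to 65.1 CPM there, beside 6.43 to 9.05 CPM in untreated cells, so these groups overlapped. Ccl2 ran from 1967.5 to 2051 CPM, beside 436 to 452 CPM. The part of the neural transcripts in this spread was not tested. Of 19 tested regnase and roquin targets, one of which is Zc3h12a itself, 15 were higher, 1 lower and 3 did not pass in responders (median 3.52), and 17 were higher and 1 lower in the pool (median 4.15). The lists share 8 genes and were drawn up with earlier results of these data known, so their direction is not independent evidence; Cxcl1 was in both and was not tested.

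Ier3, an early response gene, was 97.8 ± 6.10 CPM in bystanders, beside 103 ± 1.25 in untreated cells, and 827 ± 16.4 in responders, 8.41-fold above bystanders (adjusted p = 1.20e-61). Nfkbiz, the IkappaB-zeta gene, stood at 11.3 ± 0.272, 30.8 ± 2.32, 157 ± 3.25 and 190 ± 3.84 CPM in untreated, bystander, pool and responder cells. Clec4e, a lectin receptor gene, was 6.31-fold, Plaur, the urokinase receptor gene, 3.67-fold and the chemokine gene Ccl2 2.69-fold higher in responders than bystanders. Cd274, the PD-L1 gene, rose 21.3-fold in bystanders and 17.7-fold in the pool and did not pass between the gates (log2 difference -0.05, adjusted p = 0.0895). Tfrc, the transferrin receptor gene, fell 1.66-fold in bystanders and was 1.49-fold higher in responders than bystanders.

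**Figure D4:**
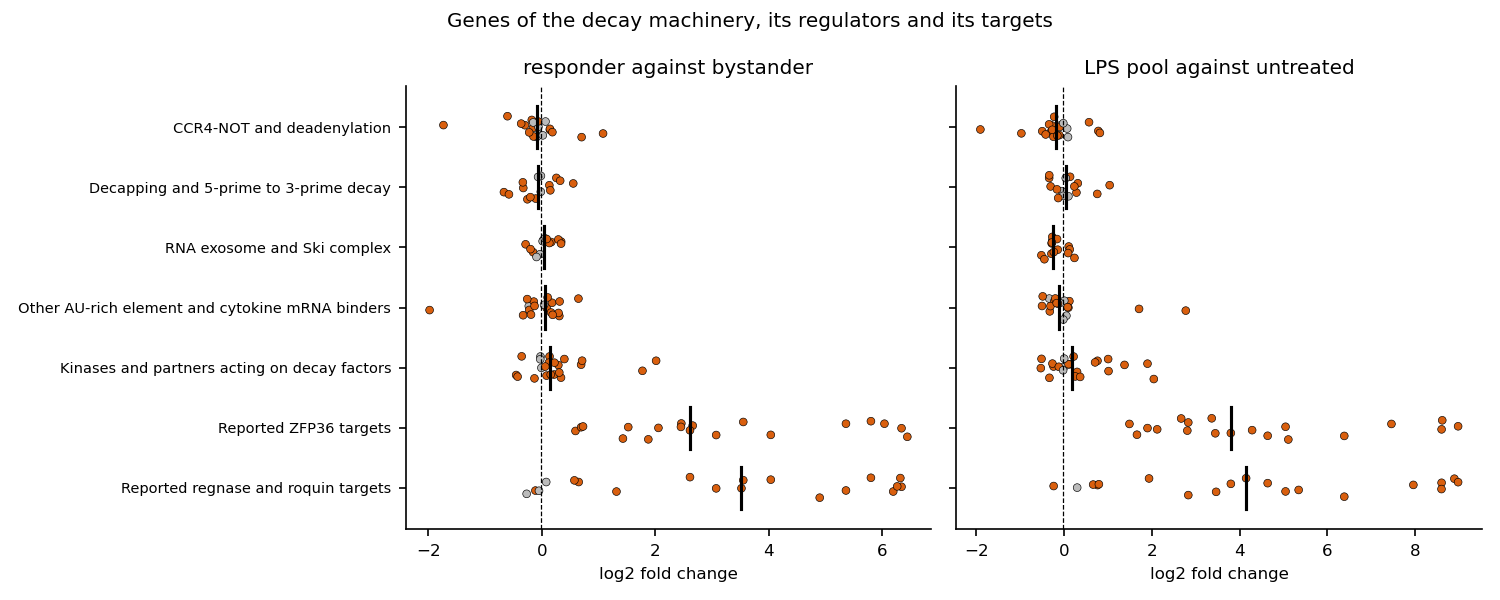
Log2 fold changes (horizontal axis) of single genes in 7 lists, for responders against bystanders and for the LPS pool against untreated cells. Filled points passed the test, grey ones did not, and the vertical bars are list medians; the target lists lie right of 0 with medians of 2.61 and 3.52 between the gates, while the machinery lists have medians from -0.08 to 0.06, which are from -0.27 to -0.13 when libraries are scaled by their totals alone.

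The genes most like each member were those with the smallest root mean square difference in centred log2 CPM over the 16 libraries, among 9610 genes with a mean of at least 5 CPM. For Zfp36 they were Sp140 (0.07), Slfn2 (0.09) and the chemokine gene Ccl4 (0.10), and Sp140 stood at 21.7, 149, 247 and 265 CPM in untreated, bystander, pool and responder cells. For Zc3h12a they were Pilra (0.16), Pilrb2 (0.23) and Tnfrsf1b, the TNF receptor 2 gene (0.24), with Pilra at 12.6, 17.02, 157 and 174 CPM. For Zc3h12c they were St3gal1, Mapre2 and Mmp9, for Zfp36l1 Pfkp, Fmr1 and 4930404N11Rik, and for Zfp36l2 Set, Cdv3 and Ifrd2. For Rc3h1 they were Cd2ap, St6galnac4 and Tmem127, and for Rc3h2 Dhrs1, Slu7 and Cpne3. Among the members themselves, Rc3h1 and Rc3h2 lay closest, at 0.12, followed by Zfp36l1 and Rc3h2 at 0.13, while Zfp36 and Zc3h12a lay 1.201 apart.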

How the data were processed

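The deposited table holds unnormalised read counts by gene for all 16 libraries, and 3 empty columns. The submitters' processing notes name featureCounts 2.1.1, HISAT2 2.2.2, fastp 1.1.0, cutadapt 3.7 and the build GRCm38 (mm10). For annotation, strandedness and multi-mapping reads the setting is not given in the sources used here. Of 27179 Entrez numbers, 25275 matched a symbol in the RefSeq gene table of GRCm38.p6, and the other 1904 held 0.399% of the counts.

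The fit used edgeR 4.0.16 (R 4.3.3): filterByExpr left 12589 genes, libraries were scaled by TMM, and a robust quasi-likelihood model with 1 mean per group and no covariate was fitted to all 16 libraries. F tests were two-sided, with Benjamini-Hochberg adjustment over all tested genes, and calls needed an adjusted p below 0.05. Levels are CPM of the TMM-scaled totals. The median biological coefficient of variation was 0.0357. In simulated counts for responders against bystanders (12241 genes), the fit recovered 77% of 100 genes set to a log2 change of 0.25. It recovered 100% of 100 set to 1. Of all calls made there 7.81% were false, a share above the adjusted p threshold of 0.05. Few genes changed there, equally many up and down and all with the same dispersion. The simulation therefore does not test the scaling on which small changes depend. No replicate pair agreed within sampling noise (chi-square per degree of freedom 1.62 to 3.13 over 24 pairs).

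Same-numbered libraries deviated together for bystanders and the LPS pool (correlations 0.391 to 0.475) and for untreated cells and responders (0.169 to 0.605). Both group pairs met the rule used for pairing (every correlation over 0.1). In the other 4 group pairs the correlations had mixed signs. Every same-numbered correlation was positive where both or neither library held neural transcripts, and negative where the libraries differed in this. The rule therefore cannot tell pairing by number from shared neural transcripts, and no pairing is concluded. Alternatives were library totals alone, RLE size factors, no filter, DESeq2 1.42.0, only the groups compared, a replicate block, each library left out, a 1.5-fold rule and the libraries without neural transcripts.

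The members and gene lists were chosen with earlier results of these data known. The text names all members, the 3 genes nearest each member and marker genes. From each list it names the 3 genes with the smallest p in responders against bystanders. The same was done for the LPS pool against untreated cells, and both needed a mean of at least 5 CPM. Nfkbid, Tnf, Malt1, Il1b, Il6, Cxcl2, Ptgs2 and the untested genes are named outside this rule. Motifs were sought in 1 principal GENCODE M21 transcript per gene and in RefSeq promoter windows.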

Additional observations from a re-analysis of the deposited data

Results flagged for a closer look

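In untreated replicate 2, Zc3h12a stood at 12.01 CPM, below the 13.2 to 13.4 CPM of the other 3 untreated libraries. The gap to the nearest of them was 0.863 of the group's range, above Dixon's critical value. It was the single such value in 28 groups of 4, and chance flags about 1 in 20 groups.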

How the results depend on the processing

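Scaling by library totals alone moved the median log2 difference over all tested genes to -0.20 between the gates, -0.36 for the LPS pool and -0.41, -0.18 for responders and bystanders against untreated cells, and to 0.14 and -0.05 for bystanders and responders against the pool. The share of calls that were higher went from 49.5% to 27.8% between the gates, from 47.4% to 21.6% for the pool, from 48.7% to 21.7% for responders and from 50.9% to 27.5% for bystanders against untreated cells, from 50.9% to 68.4% for bystanders and from 62.7% to 30.6% for responders against the pool. With it the LPS pool differed from untreated cells by -0.15 in Zfp36l1, -0.092 in Rc3h1 and -0.24 in Rc3h2, and responders by -0.25, -0.090 and -0.27. Bystanders differed from untreated cells by -0.037 in Zc3h12a and -0.15 in Zc3h12c, and responders from the pool by -0.023 in Rc3h2. Members higher and lower were then 3 and 3 for the pool and 3 and 3 for responders against untreated cells, and 2 were higher for responders against the pool, as with DESeq2.

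With at least a 1.5-fold change required, 0 members were lower between the gates. For the pool and for responders against untreated cells 3 were higher and 0 lower. In bystanders against untreated cells 2 were higher, and against the pool 0 were higher in responders and 0 in bystanders. Zfp36, Zc3h12a and Zc3h12c still passed as higher between the gates (1.70-fold, 11.4-fold and 2.87-fold). The same genes passed as lower in bystanders against the pool (1.52-fold, 9.90-fold and 2.44-fold). Zfp36l2 passed as lower in bystanders against untreated cells (1.56-fold). The share of all tested genes under this rule is not given here. RLE size factors called Rc3h2 in the LPS pool against untreated cells (0.11, adjusted p = 0.0467).

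Without the libraries with neural transcripts, an alternative added after seeing the data because the planned rule on all 16 markers found 0 such libraries, bystanders differed from untreated cells by -0.15 in Zc3h12a and -0.023 in Zc3h12c, and 4 calls were lost: Rc3h1 between the gates and between bystanders and the pool, Rc3h2 in responders against untreated cells and Zfp36l2 in responders against the pool (adjusted p = 0.232, 0.0914, 0.101 and 0.205). Zc3h12c in bystanders against untreated cells was -0.028 without untreated replicate 2 and -0.0073 without bystander replicate 4. The replicate block changed none of 42 member calls. With only the 2 groups compared it changed none of 14. That fit was added after seeing the data, for both comparisons that met the pairing rule (bystanders against the pool, responders against untreated cells). Leaving out 1 library left 660 member results on their side of the threshold with their direction, while 8 lost the call, 2 gained one and 2 turned. Those lost were Zfp36l2 in responders against the pool, without LPS pool replicate 2 or 3 or responder replicate 1, 2 or 4 (adjusted p 0.0679 to 0.133), and Rc3h2 in responders against untreated cells, without untreated replicate 1 or 4 or responder replicate 2 (0.0830 to 0.134). DESeq2 also lost Zc3h12a in responders against the pool (adjusted p = 0.0619), and library totals alone Zc3h12c (adjusted p = 0.0533). The causes were not tested. Untreated and bystander libraries held 113 to 222 reads of Zc3h12c each, which limits differences in that gene.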
